A study of Homo sapiens with 6 samples.

Results

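The EGFR family genes described here are 10 genes of the ERBB growth factor system: the receptors EGFR, ERBB2 and ERBB3, the ligands AREG, EREG, TGFA, HBEGF, BTC and EPGN, and the receptor inhibitor ERRFI1. They were found by symbol among the 46427 genes of the deposited table, and all 10 had a row. The set was chosen by the measured level of EGFR, which was lower in knockout cells, so the values of EGFR are given as a description without a test. The other 9 genes were taken as its relatives.

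The samples were HCT116 cells, a human colon carcinoma line that is mismatch repair deficient. Parental cells (ZK3-WT) were compared with cells in which both ZKSCAN3 alleles had been mutated with CRISPR/Cas9 (ZK3-KO). Both were kept in DMEM with 10% FBS, and each genotype was sequenced as 3 replicates from stranded mRNA libraries. ZK3-KO cells came from puromycin selection and single-cell isolation, so the effect of the mutation and that of isolating a clone cannot be told apart. The parental cells did not pass through that isolation.

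Between 60827060 and 69739215 reads were counted per library. ZKSCAN3 itself did not separate the genotypes, with 1769, 1643 and 1385 reads in parental libraries against 1637, 1725 and 840 reads in knockout libraries. Values per library are given here and in what follows in the order of the replicate numbers, from 1 to 3. A count over the whole gene need not show a short mutation, so it is no check of the knockout. ZK3-KO replicate 3 stood apart from its group. Across genes its log2 CPM correlated with that of replicates 1 and 2 of its genotype at 0.963 and 0.95, whereas the other pairs within a genotype lay between 0.983 and 0.989. Results that rest on it are therefore also given without it. Epithelial markers such as EPCAM and the keratins KRT8, KRT18 and KRT19 summed to between 2993 and 6240 CPM, whereas leukocyte markers reached 1.21 CPM at most and endothelial markers 2.58 CPM. Of 7 fibroblast markers COL1A1 made up nearly all of the signal, with 52.5, 44.2 and 56.3 CPM in parental libraries and 49.7, 32.2 and 98.8 CPM in knockout libraries, highest in ZK3-KO replicate 3. The defining fibroblast markers DCN and LUM had at most 0.0318 CPM.

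ERBB receptors are tyrosine kinases of the cell surface that pair with each other once a ligand has opened their extracellular part. EGFR binds amphiregulin, epiregulin, transforming growth factor alpha, heparin-binding EGF, betacellulin, epigen and EGF, while ERBB2 has no known ligand and ERBB3 has a weak kinase and signals mainly as a partner. The ligands are made as membrane proteins and are released by metalloproteases of the ADAM family, and the RAS-MAPK cascade downstream induces several of the ligands and the inhibitor MIG6, the product of ERRFI1. In the colon epithelium EGFR signalling is known for driving proliferation and repair, and in colorectal tumours AREG and EREG levels have been studied as markers of response to antibodies against EGFR.

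The promoters of 5 of these genes are shown as a description of their base composition and core elements. A link between these and the levels of the genes, or their spread between libraries, was not tested. The sequences are 300 bases long (250 bases before and 50 after the annotated start), come from RefSeq on GRCh38.p14, and are written on the strand of the gene. Of the 10 genes, 9 had an entry, and where a gene had more than 1 the 5′-most was taken. Capitals mark matches to any of 3 motifs on either strand, so some read as the reverse complement. The GC box was searched as GGGCGG. The TATA box was searched as TATAAA. The cAMP response element was searched as TGACGTCA. The intervals are chr7:55018767-55019066 (plus strand) for EGFR, chr4:74444886-74445185 (plus strand) for AREG, chr4:74364895-74365194 (plus strand) for EREG, chr5:140346554-140346853 (minus strand) for HBEGF and chr1:8026260-8026559 (minus strand) for ERRFI1.
EGFR: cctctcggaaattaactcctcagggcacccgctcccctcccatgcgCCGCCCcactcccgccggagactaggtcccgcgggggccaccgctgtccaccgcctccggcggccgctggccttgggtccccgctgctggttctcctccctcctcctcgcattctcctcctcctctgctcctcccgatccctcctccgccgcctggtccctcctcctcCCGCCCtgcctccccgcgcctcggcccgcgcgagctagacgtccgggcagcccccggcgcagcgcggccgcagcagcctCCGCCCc
AREG: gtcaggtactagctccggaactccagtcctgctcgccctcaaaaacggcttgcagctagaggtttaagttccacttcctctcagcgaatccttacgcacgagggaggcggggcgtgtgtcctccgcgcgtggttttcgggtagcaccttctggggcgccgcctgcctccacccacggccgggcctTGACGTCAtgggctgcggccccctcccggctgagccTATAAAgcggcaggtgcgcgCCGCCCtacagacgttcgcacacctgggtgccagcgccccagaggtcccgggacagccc
EREG: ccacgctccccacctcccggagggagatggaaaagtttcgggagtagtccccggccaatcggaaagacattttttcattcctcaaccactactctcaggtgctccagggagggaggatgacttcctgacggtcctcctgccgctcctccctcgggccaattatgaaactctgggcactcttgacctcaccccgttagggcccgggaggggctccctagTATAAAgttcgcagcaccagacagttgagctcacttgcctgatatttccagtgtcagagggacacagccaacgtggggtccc
HBEGF: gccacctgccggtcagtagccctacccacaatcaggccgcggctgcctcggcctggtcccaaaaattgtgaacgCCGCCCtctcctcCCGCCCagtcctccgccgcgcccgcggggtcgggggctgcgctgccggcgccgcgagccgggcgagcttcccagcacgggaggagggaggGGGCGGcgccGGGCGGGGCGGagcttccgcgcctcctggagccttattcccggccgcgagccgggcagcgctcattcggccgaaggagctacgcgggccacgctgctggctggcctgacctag
ERRFI1: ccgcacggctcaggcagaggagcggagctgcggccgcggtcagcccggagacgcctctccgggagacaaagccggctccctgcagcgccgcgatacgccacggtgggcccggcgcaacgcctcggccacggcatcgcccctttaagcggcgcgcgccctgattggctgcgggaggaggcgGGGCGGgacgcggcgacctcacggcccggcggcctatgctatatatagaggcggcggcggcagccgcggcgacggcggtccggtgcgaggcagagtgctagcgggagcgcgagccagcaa

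The EGFR promoter had 75.3% G and C, held 3 GC boxes and had no TATA box match. HBEGF was alike in composition (75%) and held 5 GC boxes, a pair of which overlap. The AREG promoter held a TATA box 29 bases and a cAMP response element 65 bases before the start, beside 1 GC box, and EREG held a TATA box 32 bases before the start. In the ERRFI1 promoter 1 GC box was found and no match to the other motifs. Among 35116 promoters of this length, a GC box was found in 45.0%, a TATA box in 11.5% and a cAMP response element in 1.85%, and the median content of G and C was 58.7%. These are matches of letters only.

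EGFR, the receptor by which the set was chosen, lies on chromosome 7 (GRCh37, 55086710 to 55279321, plus strand). Its normalised read count, given as CPM (the count scaled to a common library size, after edgeR's TMM factors), was 167, 192 and 167 in ZK3-WT cells against 86.4, 84.9 and 80.3 in ZK3-KO cells. Every ZK3-KO library was below every ZK3-WT library, and the libraries of each genotype lay close together. The means were 175 ± 14.4 CPM and 83.9 ± 3.21 CPM (SD, n = 3 each), a ratio of 0.479, and the fitted log2 fold change was -1.06 (SE 0.14). Over 15 alternative ways of fitting or scaling, the log2 fold change of EGFR stayed between -1.18 and -0.99, and without ZK3-KO replicate 3 it was -1.03. The antisense gene EGFR-AS1 had 0 reads in every library. In RNA of a whole culture, fewer cells that express a gene and less RNA per cell cannot be told apart.

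ERBB2, the preferred partner of the other receptors, had 90.5, 93.2 and 84.6 CPM in ZK3-WT cells and 106, 107 and 123 CPM in ZK3-KO cells. All ZK3-KO libraries were above all ZK3-WT libraries, the opposite order to that of EGFR. The log2 fold change was 0.33 (SE 0.14), and it did not pass edgeR's quasi-likelihood test with Benjamini-Hochberg adjustment to a false discovery rate (FDR) of 0.05 (FDR 0.262). ERBB3, the partner with weak kinase activity, had 79.4, 73.3 and 71.7 CPM in ZK3-WT cells and 64.0, 49.4 and 60.3 CPM in ZK3-KO cells. Its groups did not overlap either, with lower values in the knockout. ERBB3 had a log2 fold change of -0.37 (SE 0.15, edgeR FDR 0.250).

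Thus the genotypes did not overlap for 3 of the 10 genes, all of them receptors, against 26.6% of all tested genes. The 26.6% covers both directions, and EGFR is 1 of the 3 by the way the set was chosen. Of the 18366 genes that passed the expression filter, 2.05% passed this test, 1.23% with lower and 0.817% with higher counts in ZK3-KO cells. None of the 9 genes other than EGFR passed by edgeR, by DESeq2, or in limma's linear model on log2(TPM + 1). At an unadjusted p below 0.05 there were 3 (ERBB2, ERBB3 and EREG) in edgeR's fit, where 3371 of the 18366 genes (18.4%) reached that level. DESeq2 called 8.2% of all genes. All 10 genes had passed the filter with all 3 libraries of each genotype above its cut of 0.147 CPM.

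**Figure D1:**
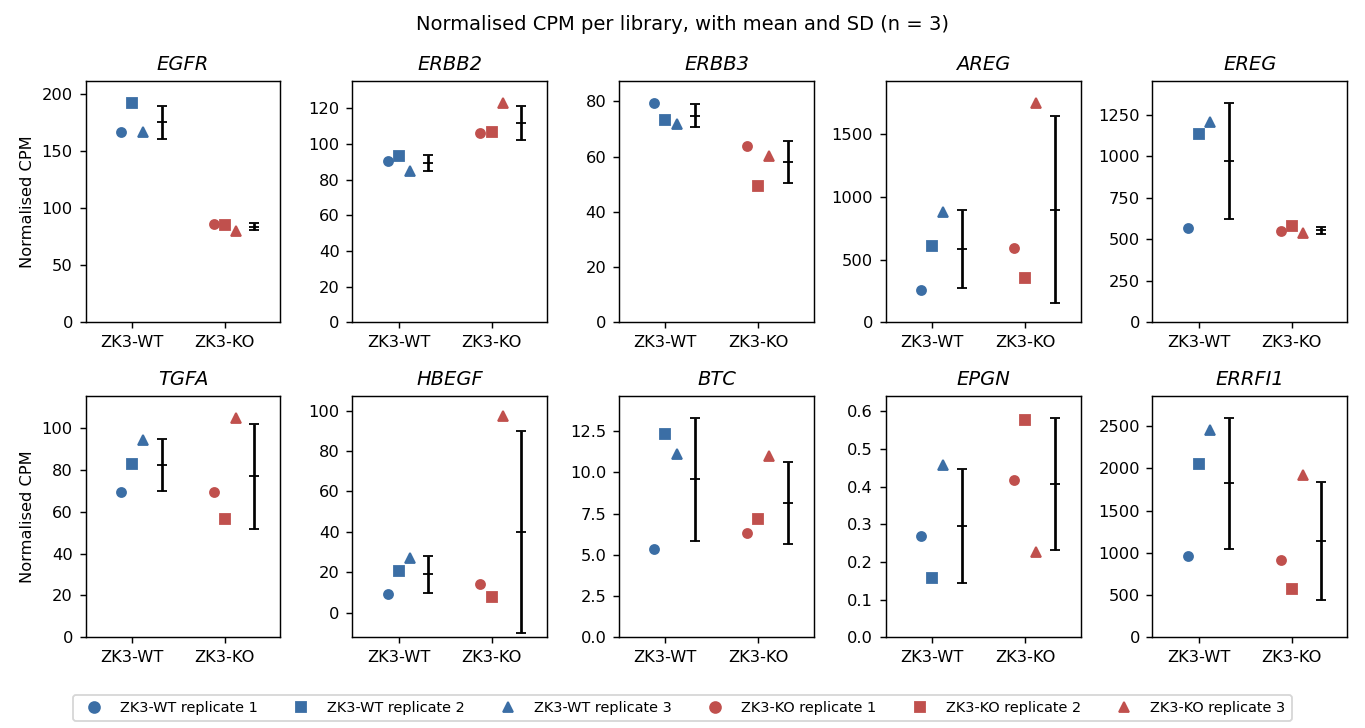
TMM-normalised CPM of each gene in each library (symbols, shape for the replicate number), with the mean and SD of 3 libraries per genotype in black. EGFR and ERBB3 lie lower and ERBB2 higher in every ZK3-KO library, while for AREG, HBEGF and ERRFI1 the libraries of a genotype differ among themselves by several fold.

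The balance between the receptors was computed per library from the deposited TPM values, which account for transcript length. The ratio of EGFR to ERBB2 was 0.871, 0.959 and 0.918 in ZK3-WT cells, so both receptors were at nearly the same level. It was 0.382, 0.372 and 0.306 in ZK3-KO cells. The ratio of EGFR to ERBB3 lay between 1.15 and 1.41 in ZK3-WT cells and between 0.715 and 0.872 in ZK3-KO cells, so that EGFR was above ERBB3 in every ZK3-WT library and below it in every ZK3-KO library. These ratios contain EGFR and are a description. The ratio of ERBB2 to ERBB3, which does not contain it, was 1.32, 1.47 and 1.40 in ZK3-WT cells and 1.91, 2.34 and 2.34 in ZK3-KO cells. The ranges did not overlap. With 3 libraries against 3 a 2-sided exact permutation test cannot go below 0.10, so no test was made on this ratio.

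ERBB4, the fourth receptor and one that also has a kinase and its own ligands, was close to absent. It had 18, 29 and 20 reads in ZK3-WT libraries and 0, 2 and 0 reads in ZK3-KO libraries, 67 against 2 in all. The ratio of the summed reads, corrected for library size, was 0.0309 with an exact 95% interval from 0.00367 to 0.116, which covers counting error only. ERBB4 passed the expression filter through its ZK3-WT libraries alone, so it had to differ once it was tested, and its edgeR FDR of 0.0385 is given for completeness. With all genes of at least 1 read in the fit its FDR was 0.0648. Leaving out any single library other than ZK3-KO replicate 3 gave FDR values of ERBB4 from 0.0599 to 0.207.

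Among the ligands, AREG (amphiregulin) had the widest range in CPM over the 6 libraries. It had 257, 609 and 875 CPM in ZK3-WT cells and 588, 357 and 1746 CPM in ZK3-KO cells. The groups overlapped, and ZK3-KO replicate 3 was the highest library of all. The log2 fold change was 0.63 (SE 0.64, edgeR FDR 0.650), and without ZK3-KO replicate 3 it was -0.30. HBEGF, the heparin-binding ligand, had the same order within each genotype. Its values were 8.94, 20.5 and 27.1 CPM in ZK3-WT cells and 14.2, 7.82 and 97.5 CPM in ZK3-KO cells. Its direction also changed with ZK3-KO replicate 3, since the log2 fold change of HBEGF was 1.08 (SE 0.89, edgeR FDR 0.568) with it and -0.77 without it. With the replicate number added as a block to the fit without that library, the log2 fold change was -0.36 for HBEGF. For AREG it was 0.22 in that fit, the sign of the fit with all 6 libraries. For neither gene was there a difference between genotypes beyond the spread of the libraries.

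EREG (epiregulin), which lies next to AREG, behaved differently. It had 568, 1138 and 1208 CPM in ZK3-WT cells and 548, 578 and 538 CPM in ZK3-KO cells. The ZK3-KO libraries lay within a narrow range and overlapped with ZK3-WT replicate 1 only, below the other ZK3-WT libraries. The log2 fold change was -0.81 (SE 0.28) and did not pass the test (edgeR FDR 0.198, between 0.0729 and 0.556 over the alternatives). Unlike AREG, EREG was not raised in ZK3-KO replicate 3. The ratio of AREG to EREG TPM was accordingly 1.70, 2.00 and 2.71 in ZK3-WT cells and 4.01, 2.31 and 12.1 in ZK3-KO cells.

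TGFA, the ligand first described as a transforming factor, had 69.4, 83.1 and 94.4 CPM in ZK3-WT cells and 69.3, 56.6 and 105 CPM in ZK3-KO cells. Within each genotype the order of the libraries was that of AREG, over a far smaller range, and the log2 fold change was -0.10 (SE 0.25, edgeR FDR 0.872). BTC (betacellulin), which also activates ERBB4, had 5.33, 12.3 and 11.1 CPM in ZK3-WT cells and 6.32, 7.14 and 11.0 CPM in ZK3-KO cells. Its groups overlapped over nearly their whole range, with a log2 fold change of -0.24 (SE 0.36, edgeR FDR 0.772). EPGN (epigen) was counted with 17, 11 and 32 reads in ZK3-WT libraries and 27, 40 and 14 reads in ZK3-KO libraries, at which a difference was not detectable (log2 fold change 0.47, SE 0.53, edgeR FDR 0.694).

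EGF itself, which is not in the set of 10, was at a low level and differed between the genotypes. It had 64, 57 and 66 reads in ZK3-WT libraries and 12, 21 and 12 reads in ZK3-KO libraries. All ZK3-KO libraries were below all ZK3-WT libraries. The ratio of the summed reads was 0.249 (95% interval from 0.176 to 0.347, counting error only), the log2 fold change was -2.01 (SE 0.35), and EGF passed edgeR's test with an FDR of 0.0385. With the replicate number as a block its FDR was 0.0580, and it did not pass. Nor did it in limma's model on log2(TPM + 1) (FDR 0.0809) or on log2(TPM + 0.1) (FDR 0.0649). Leaving out any single library other than ZK3-KO replicate 3 also ended the call, with FDR values from 0.0624 to 0.188.

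The neuregulins, which bind ERBB3 and ERBB4, were low. NRG1 had 38 reads in the ZK3-WT libraries together and 41 in the ZK3-KO libraries, and NRG3 had none in any library. NRG2 had 1.48, 1.03 and 0.872 CPM in ZK3-WT cells and 2.14, 2.51 and 1.13 CPM in ZK3-KO cells (log2 fold change 0.78, edgeR FDR 0.331). NRG4 had 0.875, 0.813 and 0.944 CPM in ZK3-WT cells and 1.58, 2.12 and 0.939 CPM in ZK3-KO cells (log2 fold change 0.82, edgeR FDR 0.275). In both genes ZK3-KO replicates 1 and 2 were above all ZK3-WT libraries and ZK3-KO replicate 3 was not. Without it the FDR values of edgeR's test were 0.0482 for NRG2 and 0.0372 for NRG4, in a fit in which 15.1% of 18872 genes passed, and neither passed when the replicate block was added to that fit.

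ERRFI1 encodes MIG6, which binds the kinase domain of activated EGFR and blocks it. It had 960, 2050 and 2459 CPM in ZK3-WT cells and 919, 575 and 1925 CPM in ZK3-KO cells. ZK3-WT replicate 1 lay near ZK3-KO replicate 1, and ZK3-KO replicate 3 lay near the higher ZK3-WT libraries. The log2 fold change was -0.68 (SE 0.49, edgeR FDR 0.514). Without ZK3-KO replicate 3 it was -1.29 (SE 0.36) and passed with an edgeR FDR of 0.0450, as did 15.1% of all genes in that fit. With the replicate block added, the FDR without ZK3-KO replicate 3 was 0.231.

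**Figure D2:**
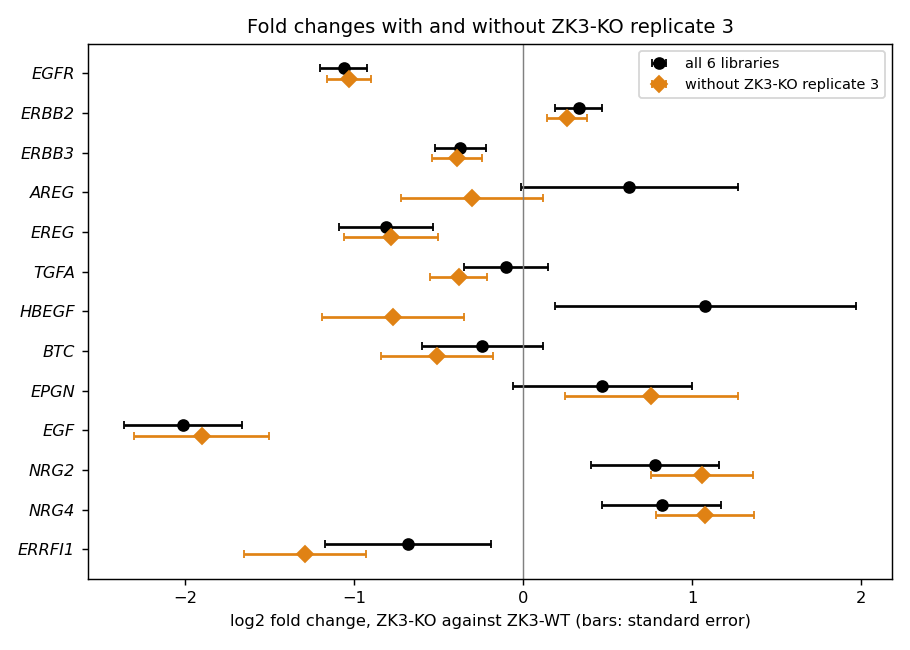
Fitted log2 fold change of ZK3-KO against ZK3-WT cells (horizontal axis) with its standard error, for the receptors, ligands and ERRFI1, from all 6 libraries (black) and without ZK3-KO replicate 3 (orange). EGFR, ERBB2, ERBB3, EREG and EGF hardly move between the fits, whereas AREG goes from 0.63 to -0.30 and HBEGF from 1.08 to -0.77.

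The order of the genes by level was read from TPM. In ZK3-WT cells ERRFI1 was highest with a mean of 1185 TPM (599 to 1597), followed by AREG with 995 TPM (434 to 1484) and EREG with 446 TPM (256 to 548), and the ranges of neighbours in this order overlapped. All 3 were clearly apart from the next group of TGFA (42.2 TPM), ERBB2 (40.8 TPM) and EGFR (37.4 TPM), whose ranges also overlapped. ERBB3 followed with 29.2 TPM (27.5 to 30.6), apart from EGFR and from HBEGF (16.9 TPM), which overlapped with BTC (8.39 TPM). EPGN was last with 0.234 TPM.

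In ZK3-KO cells AREG had a mean of 1321 TPM (602 to 2367) and ERRFI1 of 646 TPM (363 to 1031), and their ranges overlapped. EREG came next with 234 TPM (195 to 261). ERBB2 had 46.8 TPM (44.3 to 48.4), apart from TGFA at 35.4 TPM, which overlapped with HBEGF at 29.5 TPM (6.90 to 69.1). HBEGF also overlapped with the next gene. Its place rests on ZK3-KO replicate 3, since it had 12.6, 6.90 and 69.1 TPM. In replicates 1 and 2 it was below both ERBB3 and EGFR. ERBB3 was at 21.6 TPM (19.0 to 25.1) and EGFR at 16.6 TPM (13.6 to 18.3), so EGFR lay above ERBB3 in ZK3-WT cells and below it in ZK3-KO cells. BTC with 6.14 TPM and EPGN with 0.306 TPM closed the order. The deposited FPKM values gave the same order in both genotypes.

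**Figure D3:**
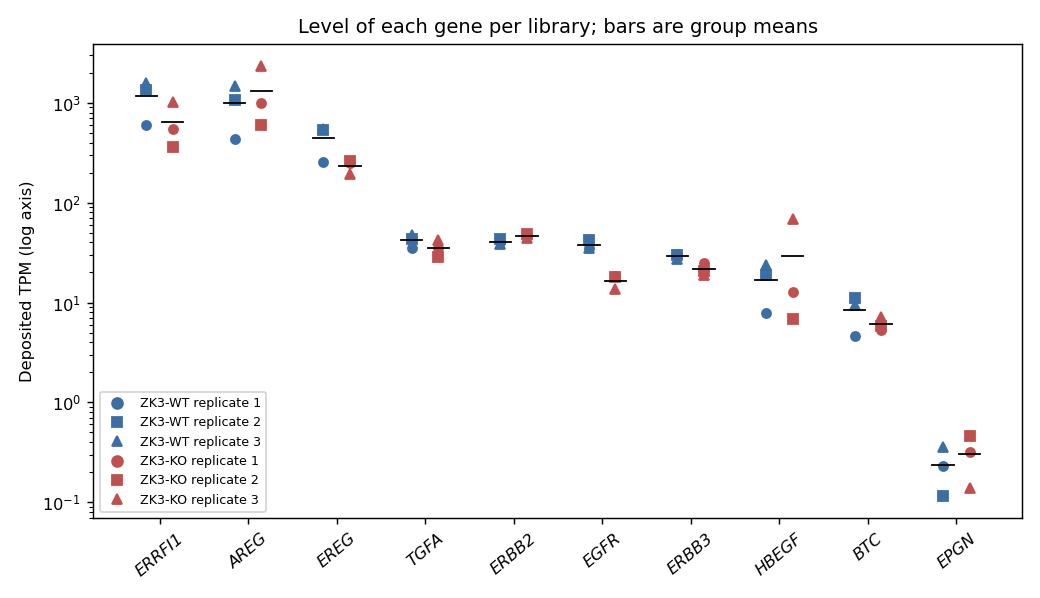
Deposited TPM of each gene per library on a log axis, ordered by the mean of ZK3-WT cells, with black bars at the group means. AREG, EREG and ERRFI1 have group means about 10-fold or more above those of the receptors in ZK3-WT cells. The libraries of the genotypes do not overlap for EGFR, which was chosen for that difference.

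The ligand pool was made up almost wholly of AREG and EREG. Together they took between 93.5% and 96.1% of the summed TPM of 7 EGFR ligands in ZK3-WT libraries and between 95.4% and 95.9% in ZK3-KO libraries. Within that pool the share of EREG was 34.7%, 31.8% and 25.9% in ZK3-WT cells and 19.1%, 28.8% and 7.27% in ZK3-KO cells. TGFA took between 1.59% and 4.74% in all libraries and HBEGF between 0.763% and 2.58%. EGF took at most 0.0595%. The number for AREG is uncertain in 1 respect. GRCh37 holds a second copy of AREG downstream (chromosome 4, 75480629 to 75490481), which matched the AREG transcript at 1233 of 1234 bases. That copy had no row in the deposited table, and how reads that fit both places were counted is not given in the sources used here.

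The genes that vary with AREG were looked up across the 6 libraries as a description, over 13149 genes whose log2 CPM averaged 1 or more. The highest Pearson correlations of log2 CPM with AREG were those of OCLN (0.995), which encodes the tight junction protein occludin, RFFL (0.991), CALML6 (0.988), DCLK1 (0.987) and SP2 (0.987). HBEGF had an r of 0.962 with AREG and TGFA of 0.858. For EGFR the closest genes were KLRC2 (0.998), ADAMTS14 (0.997), TIAM1 (0.997), which encodes an activator of RAC, ARF3 (0.997) and DDX58 (0.996), which encodes the RNA sensor RIG-I. TIAM1 had 179, 224 and 190 CPM in ZK3-WT cells and 59.8, 65.3 and 59.6 CPM in ZK3-KO cells. These correlations with EGFR reflect mainly the step between the genotypes, and EREG had an r of 0.753 with EGFR. With 6 points from 2 genotypes no p is given.

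The neighbours of EGFR on the chromosome did not share its pattern. Within 1 Mb of the gene 13 other genes were tested, and 11 of them had a positive log2 fold change. The values ran from -0.33 (PSPH) to 0.55 (SEC61G), with a median of 0.30. LANCL2, the next tested gene downstream, had a log2 fold change of 0.36 (SE 0.19) and VOPP1 of 0.50 (SE 0.21). None of the 13 passed in edgeR's fit of all 6 libraries or in DESeq2, and 2 had an unadjusted p below 0.05, against 18.4% of all genes. Without ZK3-KO replicate 3 there were 3 past the FDR (VOPP1, PSPH and CCT6A), against 15.1% of all genes.

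AREG, EREG, BTC and EPGN form a cluster on chromosome 4 (GRCh37, 75174187 to 75719733). They did not move as a block, with log2 fold changes of 0.63 for AREG, -0.81 for EREG, -0.24 for BTC and 0.47 for EPGN. Within 1 Mb of the cluster 16 other genes were tested, with values from -1.27 (CXCL8) to 1.30 (ALB) and a median of -0.14. None passed by edgeR with all 6 libraries, 3 had an unadjusted p below 0.05 (18.4% of all genes) and 1 passed by DESeq2 (8.2% of all genes). PARM1, on the far side of BTC, was higher in every ZK3-KO library (log2 fold change 0.77, SE 0.19, edgeR FDR 0.0916). The chemokine genes CXCL8 and CXCL1 were low in ZK3-KO replicates 1 and 2 and not in replicate 3. CXCL8 had 0.843, 4.41 and 5.41 CPM in ZK3-WT cells, lowest in replicate 1, and 0.435, 0.173 and 3.82 CPM in ZK3-KO cells. Without ZK3-KO replicate 3 its log2 fold change was -3.55 (edgeR FDR 0.0206). In that fit 3 of the 16 neighbours passed, as did 15.1% of all genes. At such low levels its fold change is imprecise.

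**Figure D4:**
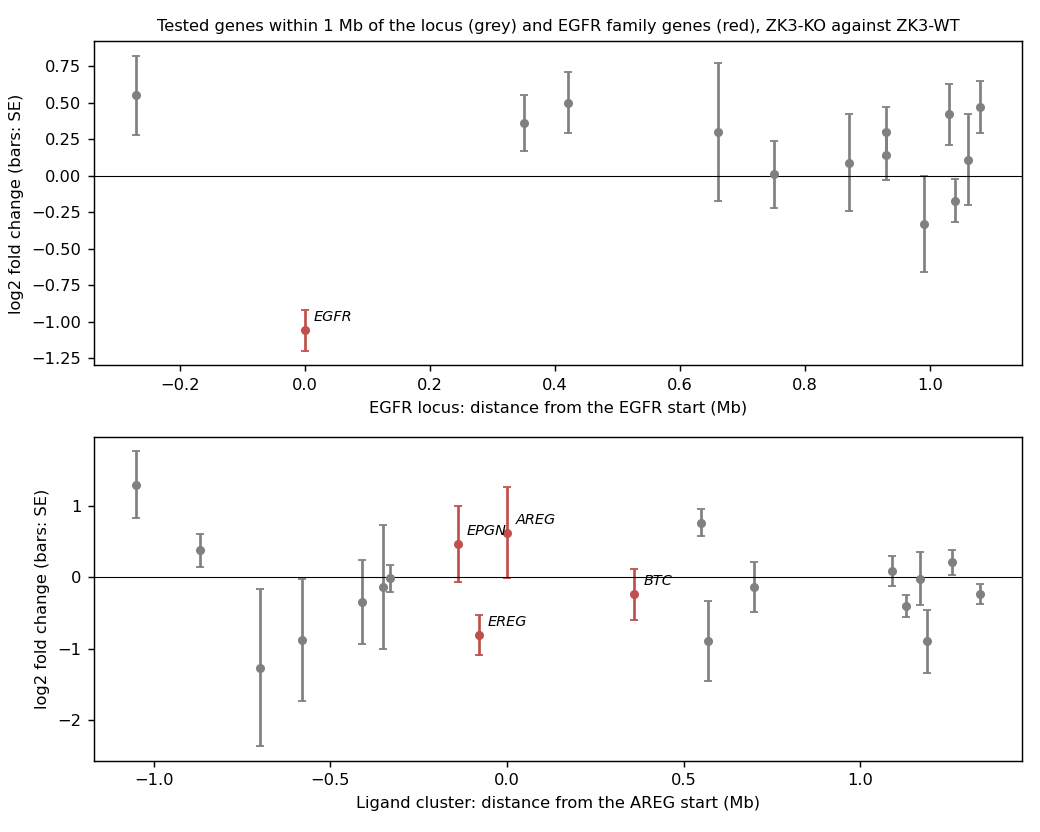
Fitted log2 fold change with its standard error for tested genes within 1 Mb of EGFR (upper panel) or of the ligand cluster (lower panel), against the distance of their start from that of EGFR or AREG in Mb. EGFR, by whose difference the set was chosen, lies at -1.06, below all 13 of its tested neighbours, which range from -0.33 to 0.55.

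The other genes of the pathway were taken from 8 lists with 142 genes, 132 of which were tested. ERBB4 is left out of the counts in this paragraph, since it passed the filter through 1 genotype, which leaves 131. With all 6 libraries only EGF passed edgeR's test (0.763%, against 2.05% of all genes) and 6 passed DESeq2 (4.58%, against 8.2%). An unadjusted p below 0.05 was reached by 18 (13.7%, against 18.4%), and the genotypes of 30 did not overlap (22.9%, against 26.6%). These shares were near or below those of all genes, and the gaps were not tested. Without ZK3-KO replicate 3 there were 28 past the FDR of edgeR's test. Of these 22 were lower in ZK3-KO cells (16.8%, against 7.73% of all genes) and 6 were higher (4.58%, against 7.41%). When the replicate block was added to the fit without ZK3-KO replicate 3, 2 passed.

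Shedding and transport of the ligands was covered by 9 tested genes, 7 of which had lower values in ZK3-KO cells (median log2 fold change -0.23, against 0.02 for all tested genes). With all 6 libraries none passed by edgeR or DESeq2 and 2 had an unadjusted p below 0.05 (22.2%, against 18.4% of all genes). ADAM17, the main sheddase of AREG, HBEGF and TGFA, had 72.5, 98.3 and 128 CPM in ZK3-WT cells and 57.9, 58.1 and 109 CPM in ZK3-KO cells (log2 fold change -0.41, edgeR FDR 0.534). ADAM9, a related protease, had 277, 367 and 291 CPM against 251, 242 and 163 CPM, without overlap (log2 fold change -0.51, edgeR FDR 0.266). AP1M2, a subunit of the epithelial sorting adaptor, was higher in all ZK3-KO libraries (log2 fold change 0.41, edgeR FDR 0.236).

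Ubiquitination, endocytosis and inhibition of the receptors was covered by 23 tested genes. None passed by edgeR, 1 passed by DESeq2 (4.35%, against 8.2% of all genes) and 6 had an unadjusted p below 0.05 (26.1%, against 18.4%), and 14 had lower values in the knockout (median -0.19). SH3KBP1, which encodes the adaptor CIN85 that links CBL to endocytosis of EGFR, had 128, 150 and 191 CPM in ZK3-WT cells and 30.6, 27.3 and 114 CPM in ZK3-KO cells. All ZK3-KO libraries were lower, replicates 1 and 2 by far the most. Its log2 fold change was -1.44 (SE 0.54, edgeR FDR 0.222) with all libraries and -2.43 (SE 0.20, edgeR FDR 3.45e-04) without ZK3-KO replicate 3, where it also passed with the replicate block (FDR 0.0111). RNF41, the ubiquitin ligase of ERBB3, had 54.0, 75.3 and 73.4 CPM against 43.0, 36.5 and 59.1 CPM. Its log2 fold change was -0.55 (edgeR FDR 0.252), and -0.76 (edgeR FDR 0.026) without ZK3-KO replicate 3. In that fit 15.1% of all genes passed, and with the replicate block added the edgeR FDR of RNF41 was 0.138. CBL itself, the main ubiquitin ligase of EGFR, had a log2 fold change of -0.34 (edgeR FDR 0.376).

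Of the 26 tested adaptors and kinases of the RAS-MAPK cascade, none passed by edgeR with all 6 libraries, and the median log2 fold change was 0.08. By DESeq2 1 passed, ARAF (FDR 0.00515), which is 3.85% against 8.2% of all genes. An unadjusted p below 0.05 in edgeR's fit was reached by 1 (3.85%, against 18.4%). ARAF, a kinase of the RAF family, had 37.4, 28.4 and 34.1 CPM in ZK3-WT cells and 51.9, 49.2 and 57.9 CPM in ZK3-KO cells (log2 fold change 0.67, SE 0.16, edgeR FDR 0.0859). KSR2, a scaffold of the cascade, had 50.7, 38.9 and 34.4 CPM against 103, 90.8 and 28.2 CPM, with ZK3-KO replicate 3 on the other side of the ZK3-WT libraries. Its log2 fold change was 0.84 (edgeR FDR 0.359) and 1.23 (edgeR FDR 0.00352) without that library. In the latter fit 5 of the 26 genes passed, as did 15.1% of all genes. With the replicate block added to it, the edgeR FDR of KSR2 was 0.0377.

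Among 18 tested genes of the PI3K, phospholipase C and STAT branches the median was -0.06, and none passed by edgeR while 1 passed by DESeq2 (5.56%, against 8.2% of all genes) and 3 had an unadjusted p below 0.05 (16.7%, against 18.4%). STAT3, a transcription factor activated by EGFR among others, had 137, 128 and 112 CPM in ZK3-WT cells and 82.2, 80.8 and 80.9 CPM in ZK3-KO cells. The groups were well apart, with a log2 fold change of -0.63 (SE 0.14), and the edgeR FDR was 0.0724. STAT3 was the gene that passed by DESeq2 (FDR 0.00138). PIK3CA, the catalytic subunit of PI3K, had 39.0, 42.3 and 37.1 CPM against 29.8, 28.7 and 21.3 CPM (log2 fold change -0.57, edgeR FDR 0.150).

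Of 25 other tested receptor tyrosine kinases, 11 had higher and 14 lower values in the knockout (median -0.04). None passed by edgeR with all 6 libraries. By DESeq2 2 passed, PTK7 (FDR 2.42e-04) and RET (FDR 0.00136), which is 8% against 8.2% of all genes. PTK7 also passed in limma's model on log2(TPM + 1) (FDR 0.0328). An unadjusted p below 0.05 in edgeR's fit was reached by 4 (16%, against 18.4%). PTK7, a pseudokinase of WNT signalling, had 254, 323 and 257 CPM in ZK3-WT cells and 152, 154 and 168 CPM in ZK3-KO cells (log2 fold change -0.81, SE 0.16, edgeR FDR 0.0519). RET, the receptor of the GDNF family, had 15.5, 13.8 and 10.8 CPM against 7.92, 6.89 and 6.42 CPM (log2 fold change -0.91, SE 0.20, edgeR FDR 0.0716, and 0.0489 with the replicate block).

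The libraries of a genotype also differed in the feedback and output genes of the MAPK cascade, among them the phosphatases DUSP4, DUSP5 and DUSP6, the SPRY and SPRED inhibitors and the immediate early factors EGR1, FOS and JUN. Of 26 tested genes 20 had lower values in the knockout, and their median log2 fold change was -0.35, against 0.02 for all genes. None passed by edgeR or DESeq2 and 1 had an unadjusted p below 0.05 (3.85%, against 18.4%). The median deviation from the mean of ZK3-WT was -0.38, 0.13 and 0.27 on the log2 scale in parental libraries and -0.54, -0.92 and 0.18 in knockout libraries. Replicate 1 was thus low within ZK3-WT, and replicate 3 was high in both genotypes.

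DUSP6, a phosphatase of ERK, had 251, 627 and 592 CPM in ZK3-WT cells and 216, 181 and 422 CPM in ZK3-KO cells, and DUSP5 had 131, 269 and 441 CPM against 102, 67.6 and 952 CPM. EGR1, the early growth response factor, had 113, 338 and 341 CPM against 109, 69.5 and 251 CPM. FOSL1, an AP-1 subunit, had 41.5, 86.9 and 118 CPM against 66.7, 80.6 and 308 CPM. In each of them ZK3-WT replicate 1 was the lowest of its genotype and ZK3-KO replicate 3 the highest. Over the list ZK3-WT replicate 1 was the lowest ZK3-WT library in 23 of 26 genes (88.5%, against 35.9% of all tested genes), and ZK3-KO replicate 3 was the highest ZK3-KO library in 21 of 26 (80.8%, against 42.9%).

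The same order held for the ligands and ERRFI1. In 6 of these 7 genes, all but EPGN, ZK3-WT replicate 1 was the lowest ZK3-WT library. In 5 of 7, all but EREG and EPGN, ZK3-KO replicate 3 was the highest ZK3-KO library. EGFR, ERBB2 and ERBB3 differed by little within a genotype. The summed level of the epithelial markers moved in the same way, with 3318, 3919 and 4282 CPM in parental libraries and 3268, 2993 and 6240 CPM in knockout libraries. Its part in the ligand values was not tested.

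Without ZK3-KO replicate 3 the median of the 26 genes was -0.75 and 24 were lower in ZK3-KO cells. In that fit 9 passed edgeR's test, all of them lower, where 7.73% of all genes passed in that direction. They were SPRED3, DUSP4, DUSP5, DUSP6, PHLDA1, EPHA2, ETV5, EGR1 and IER3, with log2 fold changes from -0.75 (DUSP4, edgeR FDR 0.0147) to -1.73 (DUSP5, edgeR FDR 0.0306). With the replicate block added, none of the 26 passed and the median was -0.61. Whether the difference between ZK3-KO replicate 3 and the others lies in the cells, in the culture or in the library was not tested.

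**Figure D5:**
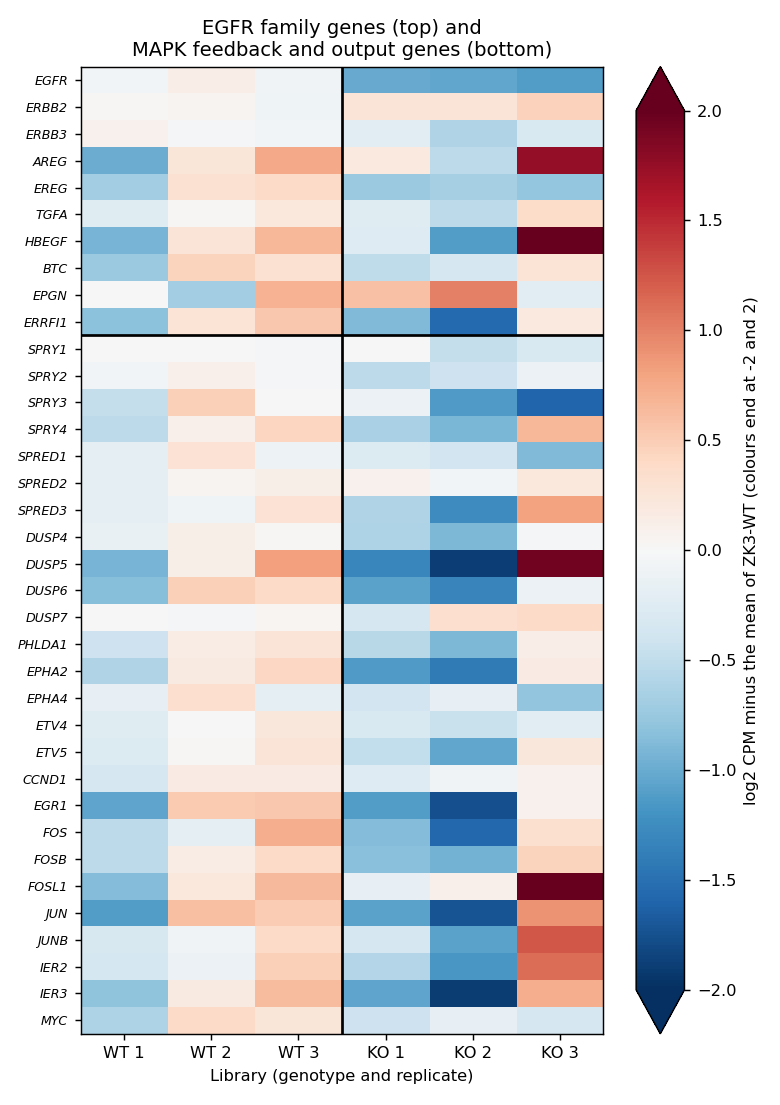
Deviation of log2 CPM from the mean of the ZK3-WT libraries for each library (columns), with the 10 EGFR family genes above the line and 26 feedback and output genes of the MAPK cascade below it, blue for lower and red for higher values. EGFR is evenly low in all ZK3-KO libraries, whereas AREG, HBEGF, ERRFI1 and most of the genes below the line are low in ZK3-WT replicate 1 and ZK3-KO replicates 1 and 2 relative to replicate 3 of the same genotype.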

How the data were processed

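RNA of ZK3-WT and ZK3-KO HCT116 cells, 3 libraries each, was sequenced and quantified by the authors. The authors deposited 1 table of 46427 genes with counts of reads per gene, not normalized, beside FPKM and TPM values. The deposited FPKM and TPM values are scaled for transcript length and library size. The submitters' processing notes name Bowtie2 2.2.5 and hg19 (GRCh37). The methods name an Ensembl annotation in Partek Flow, whereas genes in the table carry NCBI Gene identifiers and transcripts are those of RefSeq. The strand setting of the counting is not given in the sources used here. Columns were assigned to libraries by name, and per-sample columns without a match numbered 0.

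Counts were filtered with filterByExpr, which left 18366 genes, scaled by TMM factors (0.910 for ZK3-KO replicate 3 and 0.994 to 1.03 for the others) and compared by genotype with edgeR's quasi-likelihood test (edgeR 4.0.16, R 4.3.3). P-values were adjusted over all tested genes after Benjamini and Hochberg, and 0.05 was the threshold. SE is the log2 fold change divided by the root of the F statistic. Alternatives were DESeq2 1.42.0, 2 other scalings, 2 other filters, limma 3.58.1 on log2(TPM + 1) and log2(TPM + 0.1), the replicate number as a block, and each library left out in turn. The fit without ZK3-KO replicate 3 and with the block was added after seeing the data. P-values measure the spread between these cultures only, and read depth sets no limit except for the genes with few reads.

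Libraries of replicate number 1 and those of number 3 deviated together from their genotype's mean (correlations of 0.294 and 0.449 across genes). Pairs of unlike number had values from -0.343 to 0.209, and the pair of replicates 2 lay within that range (0.112). Deviations from a mean cancel within a genotype, so these correlations are not independent of each other. What the numbers mark is not stated.

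The 10 genes, the pathway lists and the tests were chosen with earlier results of these data known. Genes named were the 10, the other ERBB receptor and ligands, genes of each list past the threshold and the 2 with the largest change among those whose log2 CPM averaged 1 or more, the 5 most correlated with EGFR and with AREG, and tested neighbours within 1 Mb. ADAM17, CBL and the MAPK output genes other than EGR1 and FOSL1 were added with their values in view. Promoters came from RefSeq on GRCh38.p14, gene positions from a GRCh37 annotation, and the second AREG copy was found with minimap2 2.31-r1302.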

Additional observations from a re-analysis of the deposited data

How the results depend on the processing

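The log2 fold change of EGFR kept its sign in all alternatives, which is a description, since the set was chosen by this difference. It was -1.18 on log2(TPM + 0.1) and -1.06 with the replicate block. With each library left out in turn it lay between -1.10 and -0.99. The number of genes past an FDR of 0.05 was 376 by edgeR, 1506 by DESeq2, 461 with the replicate block, and from 49 to 2858 with 1 library left out, the highest of these without ZK3-KO replicate 3. Without that library and with the replicate block, a fit added after seeing the data, it was 422. Of the 132 tested pathway genes 2 passed by edgeR (ERBB4 and EGF), where 2.05% of all genes passed. ERBB4 had passed the filter through its ZK3-WT libraries alone. With the replicate block 2 passed (ERBB4 and RET), and 7 by DESeq2, where 8.2% of all genes passed. There was 1 each with all genes of at least 1 read, with at least 10 reads in every library, on log2(TPM + 1) and on log2(TPM + 0.1). In these 4 fits 270, 284, 382 and 354 of all genes passed. With 1 library left out the number of pathway genes lay between 0 and 29. It was highest without ZK3-KO replicate 3, where 15.1% of all genes passed. Without that library and with the block it was 2. Among the genes followed through the alternatives the replicate block changed only the calls of EGF and RET with all 6 libraries. AREG, HBEGF, DUSP5 and FOSL1 had the opposite sign without ZK3-KO replicate 3, and the cause was not tested. They were not the only ones, since JUNB went from 0.25 to -0.68 and IER2 from 0.08 to -0.89. With the replicate block added to the fit without that library, AREG (0.22) and FOSL1 (0.29) were positive and HBEGF (-0.36) was negative. For ERBB4, EPGN and NRG1 the few reads limit the precision.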
